A study of Mus musculus with 16 samples.

Results

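*Cd207*, *Epcam*, *H2-M2* and *Ly75*, genes used as markers of Langerhans cells, and *Il34*, the ligand on which these cells depend, were followed in RNA from whole dorsal skin of mice with and without UVB irradiation. The members were found by their symbols in the gene annotation, with 1 Ensembl gene for each symbol, and so make up 5 of the 55359 genes counted. The 16 mice were wild-type animals aged 8 weeks, C57Bl/6 per the labels and C57Bl/6N per the study's methods, whose hair follicles were resting (telogen). The groups were male UVB, male no UVB, female UVB and female no UVB, with 4 mice in each. UVB groups had received 3 exposures and their skin was taken on the day of the last of these, hours after it, whereas no UVB groups had received 0 exposures. Mice were shaved for irradiation per the study's methods, and whether the no UVB mice were shaved is not given in the sources used here. The labels give no transgene or deletion for these animals, and each library was made from 1 mouse.

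Langerhans cells are the resident antigen-presenting cells of the epidermis, which settle there early in life, renew themselves in place and carry antigen to lymph nodes when they leave. Interleukin-34, secreted largely by keratinocytes in the skin, binds the receptor Csf1r on these cells and is needed for them to form and persist in the epidermis. UVB is known for disturbing the network that Langerhans cells form among keratinocytes.

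The members differ in what they do. *Cd207* encodes langerin, the lectin that forms Birbeck granules, and is shared with some dermal dendritic cells. *H2-M2* encodes a non-classical MHC class I molecule. *Ly75* encodes DEC-205, an endocytic receptor that is also carried by other dendritic cells. *Epcam* encodes an adhesion molecule that is found on Langerhans cells and also on hair follicle keratinocytes. The 4 markers were thus not all restricted to Langerhans cells within whole skin. In bulk RNA, fewer cells of a type and less RNA per cell cannot be told apart.

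On GRCm39, *Cd207* (ENSMUSG00000034783.8) lies on chromosome 6 from 83648190 to 83654839 on the minus strand, and *Epcam* (ENSMUSG00000045394.10) lies on chromosome 17 from 87943407 to 87958557 on the plus strand. *H2-M2* (ENSMUSG00000016283.14) lies on chromosome 17 from 37791742 to 37794472 and *Ly75* (ENSMUSG00000026980.16) on chromosome 2 from 60122441 to 60213682, both on the minus strand. *Il34* (ENSMUSG00000031750.16) spans chromosome 8 from 111423928 to 111532584 on the minus strand and shares part of this span with *Vac14* and *Mtss2* on the plus strand. Counts were taken by strand, and the other strand held 3.63 to 4.23% of the gene reads. Counting reads of either strand left each call on *Il34* as it was.

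The sequences before the annotated starts of *Cd207* and *Epcam* are shown because these 2 Langerhans cell genes moved in opposite directions in males. Each is the 250 bases before the start, 5′ to 3′ on the gene's own strand, from RefSeq (GRCm38.p6), and each was located on GRCm39 by an exact match. The capitals mark the matches described after them.
Cd207, chr6:83654840-83655089, minus strand: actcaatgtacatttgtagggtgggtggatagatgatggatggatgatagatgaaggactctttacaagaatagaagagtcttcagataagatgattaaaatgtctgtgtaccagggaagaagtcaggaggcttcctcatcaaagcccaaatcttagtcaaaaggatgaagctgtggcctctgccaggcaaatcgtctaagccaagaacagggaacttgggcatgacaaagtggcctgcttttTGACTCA
Epcam, chr17:87943157-87943406, plus strand: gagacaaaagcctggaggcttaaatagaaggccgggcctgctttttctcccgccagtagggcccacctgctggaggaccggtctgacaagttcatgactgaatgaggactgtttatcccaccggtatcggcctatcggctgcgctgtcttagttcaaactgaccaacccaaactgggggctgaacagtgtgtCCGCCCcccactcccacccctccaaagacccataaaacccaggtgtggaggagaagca
The *Cd207* window ends in TGACTCA, a match to the AP-1 motif TGANTCA that starts 7 bases before the start of the gene. This motif reads alike on both strands, so a single position counts once, and 6.7% of 32851 promoter windows of the same length held it. The *Epcam* window held no AP-1 match but 1 match on its reverse strand to the GC box GGGCGG, printed as CCGCCC at 58 bases before the start, a motif held by 32.7% of the promoter windows. Searched on both strands with no match in either window were the ETS core GGAAGT, held by 19.7% of windows, the RUNX motif TGTGGT, held by 14% of windows, and the TATA box TATAAA, held by 12.4% of windows. A match describes letters only, since no binding was measured.

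Depth was 16495776 to 33404831 gene reads per mouse. At this depth the members were counted between 46 times, for *Ly75* in a UVB male, and 4501 times, for *Epcam* in another UVB male, and all 5 were tested in each comparison. Levels are given as CPM, reads of a gene relative to all gene reads of its library and scaled by TMM, so that libraries of different depth can be compared. Divided by exon length, the order of the levels over all 16 mice was led by *Epcam*, with a median of 45.7 CPM per kb and a range of 27.3 to 61.3. *Cd207* followed with a median of 15.3 CPM per kb and a range of 6.13 to 27.4. Next came *Il34* at 9.22 CPM per kb, with a range of 5.52 to 11.6, and *H2-M2* at 8.98 CPM per kb, with a range of 3.72 to 18.5. Over all mice the ranges of *Cd207*, *Il34* and *H2-M2* overlapped, and *Epcam* and *Cd207* met only at the ends of theirs. Compared within a mouse, *Epcam* lay above *Cd207* and *Cd207* above *H2-M2* in each of the 16 mice. In CPM, the *H2-M2* level was at most 0.765 of the *Cd207* level of its mouse. The *Epcam* level was at least 3.05 times that of *Cd207*. *Ly75* was the lowest at 0.683 CPM per kb, with a range of 0.315 to 1.19, below every value of the other 4.

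After UVB, *Cd207*, *H2-M2*, *Ly75* and *Il34* were lower and *Epcam* was higher in males, so that all 5 members changed at an adjusted p under 0.1, 4 of them to a lower and 1 to a higher level. In that comparison 59.6% of all tested genes changed, 30.5% lower and 29% higher, so a call alone was common. Only *H2-M2* moved past a log2 fold change of 1, as did 7.39% of tested genes. In females *Ly75* and *Il34* fell, the other 3 members did not pass the test, and 23.4% of all tested genes changed, 10.6% lower and 12.8% higher. Neither moved past a log2 fold change of 1 in females, as 2.71% of tested genes did. The median log2 fold change of the members was -0.74 in males and -0.51 in females, beside -0.02 and 0.00 over all genes tested.

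**Figure D1:**
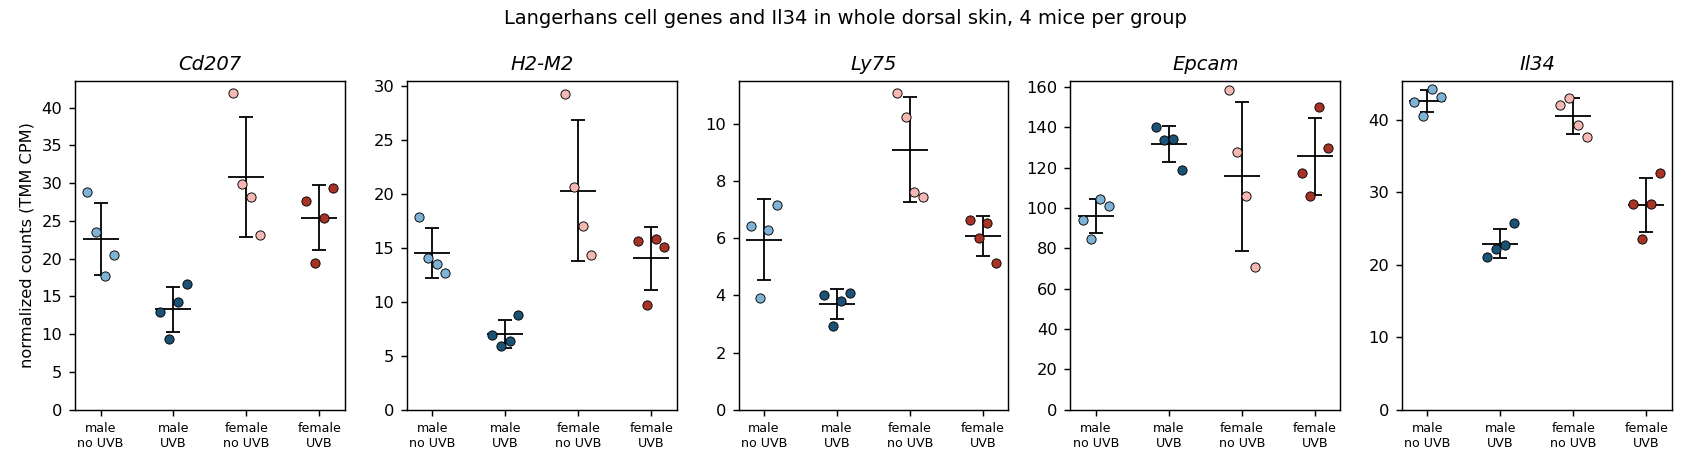
CPM of each member in each of the 16 mice, with points for mice and bars for the group mean and SD (n = 4 per group). *Il34* of UVB mice lies below that of no UVB mice in both sexes, at 21.0 to 25.7 in males and 23.5 to 32.7 in females, whereas *Epcam* of UVB males lies above that of no UVB males.

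*Il34* fell in both sexes. In no UVB males it was at 42.4, 40.5, 44.1 and 43.1 CPM, and in UVB males at 21.0, 22.1, 22.7 and 25.7 CPM. Every UVB male lay below every no UVB male, and the coefficient of variation was 3.63% without and 8.74% with UVB. The mean went from 42.5 ± 1.54 to 22.9 ± 2.0 CPM (SD, n = 4), so that it fell by 46.2%, and the log2 fold change was -0.87 with a SE of 0.0708 and an adjusted p of 3.90e-06 (quasi-likelihood test of edgeR, adjusted by Benjamini-Hochberg). Of all genes tested in males, 4.97% had a lower log2 fold change.

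The female groups were likewise apart. The no UVB females were at 42.1, 43.0, 39.2 and 37.5 CPM and the UVB females at 28.4, 23.5, 28.4 and 32.7 CPM, again with no overlap. Their means were 40.4 ± 2.51 and 28.3 ± 3.74 CPM (SD, n = 4), so that the mean fell by 30.1%, and the log2 fold change was -0.51 with a SE of 0.0967 and an adjusted p of 0.00650 in the same test. No overlap was seen for 47.1% of genes in males and 21.2% in females.

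*H2-M2* had the largest fold change of the members in males. It was at 17.9, 14.1, 13.5 and 12.7 CPM in no UVB males and at 6.88, 5.87, 6.39 and 8.81 CPM in UVB males. The highest UVB male remained below the lowest no UVB male. The means were 14.5 ± 2.31 and 6.99 ± 1.28 CPM (SD, n = 4), and the log2 fold change was -1.03 with a SE of 0.143 and an adjusted p of 0.000131 by edgeR.

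In no UVB females *H2-M2* was at 29.3, 20.6, 17.0 and 14.3 CPM, and in UVB females at 15.6, 9.70, 15.8 and 15.1 CPM. The lowest no UVB female lay among the UVB females, and the no UVB female with the highest value was also the highest for *Cd207*, *Epcam* and *Ly75*. The log2 fold change of -0.53 had a 95% interval of -1.03 to -0.02 and an adjusted p of 0.150 by edgeR, so the test was not passed. It was passed with all 16 mice in a single fit, at an adjusted p of 0.0717, and by DESeq2's Wald test, at 0.0948, with log2 fold changes of -0.54 and -0.53. Without the no UVB female at 29.3 CPM the log2 fold change was -0.30, with an adjusted p of 0.306 by edgeR. With every gene of at least 1 count included, the adjusted p was 0.381 by edgeR.

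Langerin transcripts were lower in UVB males and could not be separated in females. *Cd207* was at 28.8, 23.6, 17.7 and 20.5 CPM in no UVB males and at 12.9, 9.38, 14.3 and 16.6 CPM in UVB males. These groups did not overlap, although the highest UVB male came near the lowest no UVB male. The mean fell from 22.6 ± 4.79 to 13.3 ± 3.02 CPM (SD, n = 4), with a log2 fold change of -0.74, a SE of 0.183 and an adjusted p of 0.00705 by edgeR.

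No UVB females had *Cd207* at 41.9, 29.9, 28.2 and 23.1 CPM and UVB females at 27.6, 19.4, 25.4 and 29.3 CPM, with overlapping groups. The means were 30.8 ± 7.94 and 25.4 ± 4.33 CPM (SD, n = 4). The log2 fold change of -0.27 had a 95% interval of -0.67 to 0.13 and an adjusted p of 0.351 by edgeR, which spans no change as well as a fall close to that of males. Without the no UVB female at 41.9 CPM it was -0.09.

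*Ly75* was the least abundant member and fell in both sexes. No UVB males were at 6.43, 3.91, 6.28 and 7.17 CPM and UVB males at 4.02, 2.94, 3.80 and 4.07 CPM. A single no UVB male, at 3.91 CPM, lay within the UVB range, and the other 3 lay above it. The log2 fold change was -0.65 with a SE of 0.186 and an adjusted p of 0.0128 by edgeR.

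For females the *Ly75* values were 11.1, 10.2, 7.63 and 7.43 CPM without UVB and 6.64, 6.02, 6.52 and 5.11 CPM with UVB. The groups did not overlap, and the means were 9.09 ± 1.84 and 6.07 ± 0.692 CPM (SD, n = 4). The log2 fold change was -0.57 with a SE of 0.155 and an adjusted p of 0.0323 by edgeR, close in size to that of males.

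*Epcam* went against the other 3 Langerhans cell genes in males. No UVB males were at 94.3, 84.8, 104 and 101 CPM and UVB males at 140, 134, 134 and 119 CPM, with every UVB male above every no UVB male. Means were 96.1 ± 8.58 and 132 ± 8.99 CPM (SD, n = 4), 37.2% higher after UVB, and the log2 fold change was 0.48 with a SE of 0.0757 and an adjusted p of 0.000332 by edgeR. *Epcam* in no UVB females was at 159, 128, 106 and 70.6 CPM, the widest spread of any group of this gene, and in UVB females at 117, 106, 150 and 130 CPM. The UVB females lay within the range of the no UVB females, and the log2 fold change of 0.13 had a 95% interval of -0.35 to 0.60 and an adjusted p of 0.732 by edgeR. It changed sign, to -0.05, when the no UVB female at 70.6 CPM was left out.

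**Figure D2:**
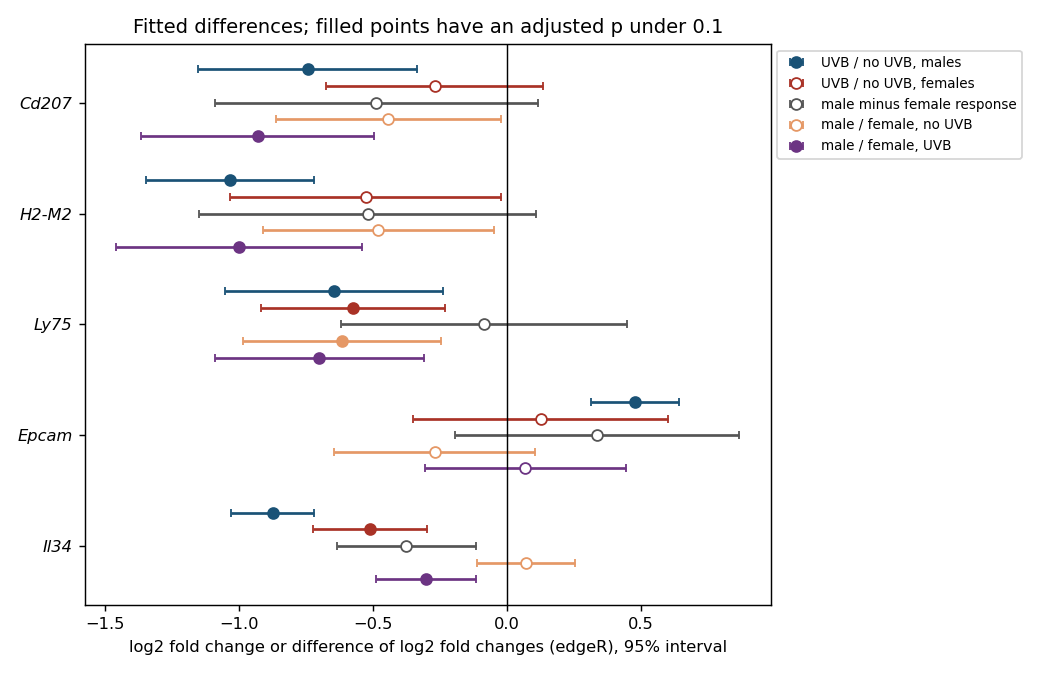
Log2 fold changes of the 5 members (points, with 95% intervals as lines) for UVB in males and in females, for the interaction, and for males against females without and with UVB. In males *Epcam* is at 0.48 and the other members are at -0.65 to -1.03, and the interaction is at -0.52 to 0.34.

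The ratios between the members show how far they moved together. *H2-M2* counts per *Cd207* count averaged 0.650 ± 0.0769 in no UVB males and 0.534 ± 0.0733 in UVB males, and 0.653 ± 0.0487 in no UVB females and 0.550 ± 0.0551 in UVB females (SD, n = 4 each). *Epcam* counts per *Cd207* count averaged 4.42 ± 1.22 in no UVB males and 10.4 ± 2.98 in UVB males, with 3.72 ± 0.506 and 5.01 ± 0.803 in females. The range of the *Epcam* ratio in UVB males, 7.18 to 14.3, lay above that of the other 3 groups, which ended at 5.91. *Ly75* per *Cd207* averaged between 0.245 and 0.300 over the 4 groups. These ratios are descriptions and were not tested.

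Whether the response differed between the sexes was asked with the interaction of UVB and sex over all 16 mice, where a negative value means that males fell further than females. No member passed, while 7% of all tested genes, 1218 of 17406, did (2.75% with a higher and 4.25% with a lower value in males), and 3625 genes had an unadjusted p under 0.05. *Il34* came nearest, with a log2 difference of -0.38, a 95% interval of -0.64 to -0.12, an unadjusted p of 0.00735 and an adjusted p of 0.101 by edgeR. That call turned on small choices, since the adjusted p was 0.0877 with upper quartile scaling, 0.0933 among genes with at least 10 counts in every mouse and 0.0898 by DESeq2. *H2-M2* differed by -0.52 (95% interval -1.15 to 0.11) and *Cd207* by -0.49 (95% interval -1.09 to 0.12). *Epcam* differed by 0.34 (95% interval -0.19 to 0.87) and *Ly75* by -0.09 (95% interval -0.62 to 0.45). A larger response of these 4 in males was therefore not shown.

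Levels were next compared between the sexes within each treatment. Without UVB, *Ly75* was lower in males than in females, at a log2 difference of -0.62 with a SE of 0.175 and an adjusted p of 0.0403 by edgeR, and the 2 groups did not overlap. Among all genes tested 11.8% differed between no UVB males and females, 4.58% being lower and 7.21% higher in males, 1.91% differed past a log2 fold of 1 and 13% did not overlap. The call on *Ly75* was lost without 1 of 3 mice. Its adjusted p was 0.118 and 0.102 without the no UVB females at 11.1 and 10.2 CPM and 0.122 without the no UVB male at 3.91 CPM. *Cd207* at -0.44 (adjusted p of 0.199), *H2-M2* at -0.48 (adjusted p of 0.174) and *Epcam* at -0.27 (adjusted p of 0.409) did not pass, and each passed when 1 no UVB female, with *Epcam* at 70.6 CPM, was left out, at adjusted p of 0.0938, 0.0638 and 0.0395. Without the no UVB female with *Ly75* at 11.1 CPM they moved towards no difference. There *Cd207* was at -0.26 (adjusted p of 0.480), *H2-M2* at -0.25 (adjusted p of 0.468) and *Epcam* at -0.08 (adjusted p of 0.837). *Il34* was at 0.07, with a 95% interval of -0.11 to 0.25. Markers of some other cells were lower in no UVB males too. Of 13 conventional dendritic cell genes 5 were lower and 0 higher, among them *Xcr1* at -1.30 (adjusted p of 0.00921). Of 10 T cell genes 4 were lower and 0 higher, among them *Cd3e* at -0.64 (adjusted p of 0.0286). Of 12 macrophage genes 0 passed, and of 7 monocyte genes 1 was lower and 0 higher. Of 6 skeletal muscle genes 4 were higher in no UVB males and 0 lower. The part of these cells in the difference of *Ly75* was not tested.

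After UVB, males had less *Cd207*, *H2-M2*, *Ly75* and *Il34* than females, and 25.2% of all genes tested differed, 12.5% being lower and 12.8% higher in males and 2.84% being past a log2 fold of 1. *H2-M2* differed by -1.0 with a SE of 0.216 (adjusted p of 0.00694 by edgeR), and the UVB males, at most 8.81 CPM, lay below the UVB females, at least 9.70 CPM. *Cd207* differed by -0.93 with a SE of 0.205 (adjusted p of 0.00780), also without overlap, with UVB males at most at 16.6 and UVB females at least at 19.4 CPM. *Ly75* differed by -0.70 with a SE of 0.185 (adjusted p of 0.0170) and did not overlap either. Such separation was seen for 21.2% of genes. *Il34* differed by -0.30 with a SE of 0.0884 (adjusted p of 0.0269), and here the groups overlapped, since 1 UVB female was at 23.5 and 1 UVB male at 25.7 CPM. *Epcam* was at 0.07, with a 95% interval of -0.31 to 0.44. Markers of some other cells were again lower. Of 13 conventional dendritic cell genes 9 were lower and 1 higher in UVB males than in UVB females, among them *Xcr1* at -1.83 (adjusted p of 0.00104) and *Clec9a* at -1.39 (adjusted p of 0.00465). Of 10 T cell genes 7 were lower and 0 higher, among them *Cd2* at -1.03 (adjusted p of 0.00537). Of 6 adipocyte genes 5 were lower and 0 higher. Of 12 macrophage genes 1 was lower and 0 higher, and of 7 monocyte genes 0 were lower and 1 higher. Keratinocyte genes were mostly higher in UVB males, with 4 of 7 basal genes higher and 0 lower. Of 7 suprabasal genes 5 were higher and 1 lower. The part of these cells in the difference of the members was not tested.

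Across the 16 mice, log2 CPM of *Cd207* and *H2-M2* had a Pearson r of 0.956, and 0.882 when the group means were removed. Each point is 1 library and the 4 groups are part of the spread, so these values are descriptions. *H2-M2* ranked 2 among 15141 genes by likeness to *Cd207*, and *Cd207* ranked 1 for *H2-M2*. *Ly75* had r of 0.814 with *Cd207* and 0.864 with *H2-M2*, which went to 0.354 and 0.458 within groups. *Epcam* had r of -0.0594 with *Cd207* over all mice but 0.424 within groups. *Il34* had r of 0.684 with *Cd207* and 0.805 with *H2-M2*, which went to 0.560 and 0.659 within groups.

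**Figure D3:**
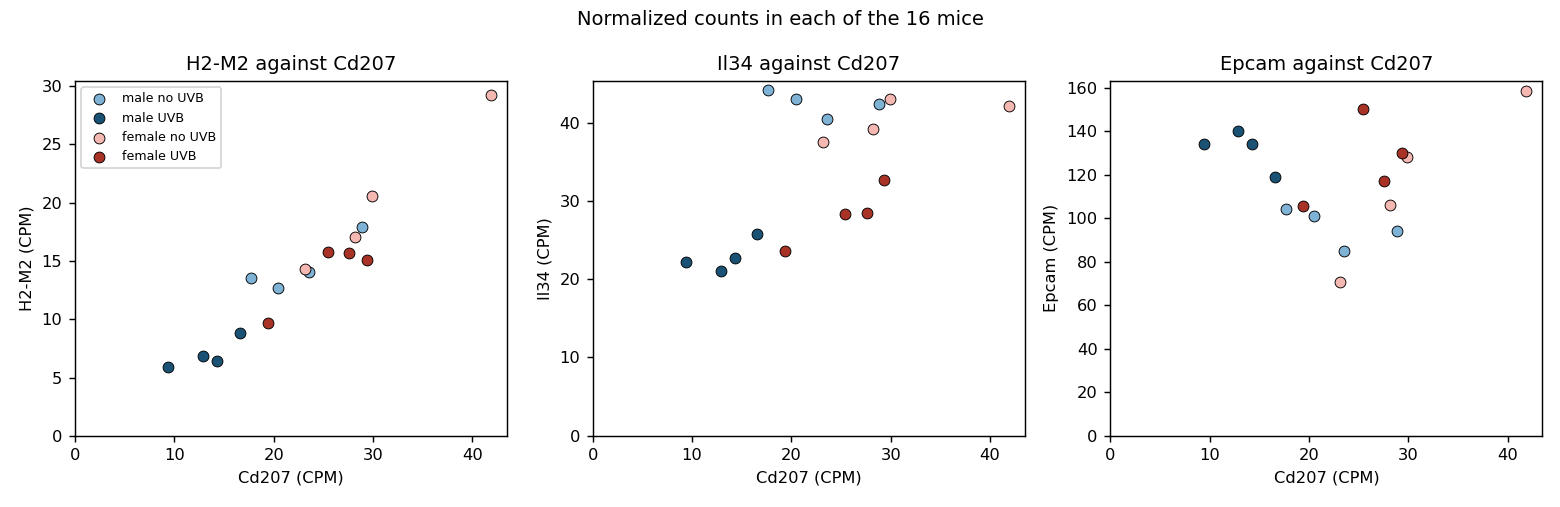
CPM of *H2-M2*, *Il34* and *Epcam* against CPM of *Cd207* on linear axes, with 1 point for each of 16 mice, coloured by group. *H2-M2* follows *Cd207* (r of 0.956 on log2 CPM), whereas *Epcam* does not (r of -0.0594 on log2 CPM).

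Among the genes named here as most like each member, only *Mgat4a* was shared, between *Cd207* and *H2-M2*. *Cd207* and *H2-M2* were also named for each other. The genes named for *Epcam*, *Ly75* and *Il34* were named for no other member. *Cd207* was followed most closely by *Mgat4a* (r of 0.957), *H2-M2*, *H2-Ob* (0.944), *Rsrp1* (0.943) and *Ezh1* (0.928). For *H2-M2* the closest were *Cd207*, *Cd3e*, a chain of the T cell receptor complex (0.953), *Mgat4a* (0.946), *Trat1* (0.943) and *Mpped2* (0.941). The closest to *Epcam* were *Atp12a* (0.926), *Klk10* (0.915), *Cxadr* (0.899), *Krt79*, a keratin of the upper hair follicle (0.896), and *Sprr4* (0.895), and *Krt79* had the highest value of these within groups, at 0.962. *Ly75* was most like *Arhgap25* (0.938), *Plxnc1* (0.918), *Kif21b* (0.916), *Hvcn1* (0.912) and *Cnn2* (0.904), and *Il34* was most like *Zfp629* (0.974), *Tbc1d16* (0.968), *Edil3* (0.968), *Mylk* (0.967) and *Ctnnd2* (0.966). All are Pearson r of log2 CPM over the same 16 mice. With the group means removed, r of these genes was 0.758 to 0.882 for *Cd207* and 0.720 to 0.882 for *H2-M2*. It was 0.867 to 0.962 for *Epcam*, 0.613 to 0.733 for *Ly75* and 0.632 to 0.845 for *Il34*.

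Around *Il34*, the receptor, the second ligand and the other binding partners were examined. *Csf1*, the second ligand of the receptor, went from 84.6 ± 4.14 to 61.1 ± 4.92 CPM in males (SD, n = 4; log2 fold change -0.45, adjusted p of 0.000198 by edgeR), and *Csf1r*, the receptor of both ligands, from 279 ± 20.6 to 210 ± 22.2 CPM (-0.39, adjusted p of 0.00263). *Sdc1*, syndecan-1, rose in males by a log2 fold change of 0.58 (adjusted p of 0.000271). *Ptprz1*, a phosphatase that binds interleukin-34, was at -0.27 in males (adjusted p of 0.277) and fell in females, from 9.16 ± 1.16 to 4.93 ± 1.12 CPM (-0.89, adjusted p of 0.00746). In females *Csf1* was at -0.55 (adjusted p of 0.123) and *Csf1r* at -0.26 (adjusted p of 0.215). Of these 5 genes, *Il34* included, 1 rose and 3 fell in males, and 2 fell in females. For this list and those below, 30.5% of all tested genes fell and 29% rose in males. In females 10.6% of all tested genes fell and 12.8% rose.

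The MHC class II genes, with which Langerhans cells and other antigen-presenting cells display peptides, fell in males as *Cd207* and *H2-M2* did. Of 11 genes 9 fell and 1 rose in males, with a median log2 fold change of -0.71, and 0 of 11 passed in females, with a median of -0.26. In the interaction 0 of 11 passed, so a difference between the sexes in this response was not shown. In males *H2-Eb1* went from 562 ± 68.8 to 313 ± 55.9 CPM (-0.82, adjusted p of 0.000279 by edgeR) and *H2-Ab1* from 613 ± 71.9 to 361 ± 56.7 CPM (-0.74, adjusted p of 0.000275). The gene that rose was *Ctss*, a protease that trims the invariant chain, at 0.23 (adjusted p of 0.0639). After UVB 10 of the 11 were lower in males than in females, with a median of -0.69, and 2 of 11 were lower without UVB. These genes are shared by many cell types.

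Markers of other cells that could carry the same transcripts moved as well. Of 13 conventional dendritic cell genes 9 fell and 1 rose in males and 4 fell and 1 rose in females, with *Clec9a*, a receptor of cross-presenting dendritic cells, at -0.97 (adjusted p of 0.00427) and *Batf3*, a factor these cells need, at -0.96 (adjusted p of 0.000418) in males. The gene that rose in both sexes was *Cd24a*, which keratinocytes also express, at 2.05 in males (adjusted p of 1.94e-07) and 0.95 in females (adjusted p of 0.00322). Of 10 genes of dendritic epidermal and other T cells 9 fell and 1 rose in males, and 3 fell in females. *Cd3e* went from 8.21 ± 1.67 to 4.49 ± 0.951 CPM in males, and the gene that rose was *Skint1*, which is expressed by keratinocytes. The summed level of these 10 genes ranged from 239 to 268 CPM in no UVB males and from 208 to 225 CPM in UVB males, with 283 to 310 and 232 to 284 CPM in females. Most of that sum was *Thy1*, which fibroblasts also express, and without it and *Skint1*, both left out after their values were seen, the other 8 genes summed to 53.2 to 71.5 CPM in no UVB males and 32.4 to 43.2 CPM in UVB males, and to 68.7 to 120 and 55.9 to 77.6 CPM in females. Macrophage genes fell in 7 of 12 cases and rose in 1 case in males, and 2 of 12 fell in females, whereas of 7 monocyte genes 2 rose and 1 fell in males and 1 fell in females. None of the listed genes was at 0 throughout a group. The part of these cells in the change of *Cd207*, *H2-M2* and *Ly75* was not tested.

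*Epcam* was set beside the keratinocyte lists. Of 6 genes of epithelial junctions that were tested 5 rose in males, among them *Cdh1*, encoding E-cadherin, by which Langerhans cells adhere to keratinocytes, at 0.54 (adjusted p of 0.000232). In females 0 of the 6 passed at an adjusted p under 0.1. Of 9 hair follicle genes 2 rose and 6 fell in males, and 3 fell in females, namely *Krt75* at -0.99 (adjusted p of 0.0217), *Lgr6* at -0.60 (adjusted p of 0.0313) and *Lgr5* at -0.54 (adjusted p of 0.0268). Their summed level was 1614 to 1836 CPM in no UVB males and 2073 to 2286 CPM in UVB males. In females the ranges were 1384 to 2032 CPM without and 1563 to 2002 CPM with UVB. Without *Krt79*, left out after its values were seen, the sum of the other 8 genes went the other way in males, from 874 to 921 CPM without UVB to 611 to 707 CPM with UVB, and was 791 to 882 and 652 to 744 CPM in females. The largest part of this remainder was *Cd34*, which endothelial cells and fibroblasts also express, at 513 ± 58.0 CPM in no UVB males and 328 ± 43.7 CPM in UVB males (SD, n = 4). *Krt79* went from 833 ± 107 to 1558 ± 126 CPM in males (0.92, adjusted p of 3.73e-05). Suprabasal keratinocyte genes rose in 6 of 7 cases in males and 5 of 7 in females, led by *Krt1* at 3.13 (adjusted p of 3.03e-05) and 1.99 (adjusted p of 0.00110), and of 7 basal keratinocyte genes 3 rose and 1 fell in males and 1 rose and 1 fell in females. The part of these cells in the level of *Epcam* was not tested.

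Other tissue carried in the skin samples also moved. All 6 skeletal muscle genes fell in males, with a summed level of 14947 to 19821 CPM in no UVB males and 8850 to 11367 CPM in UVB males, and 0 of 6 passed in females, at 9603 to 14171 and 10660 to 13907 CPM. Of 6 adipocyte genes 4 fell in males and 0 passed in females, and of 6 sebaceous gland genes 3 rose and 1 fell in males and 2 rose in females. In the interaction 5 of 6 muscle genes passed, each with a negative value, beside 7% of all tested genes. For the adipocyte and the sebaceous gland genes 0 of 6 passed there. Without UVB, 4 of 6 muscle genes were higher in males than in females and 0 were lower. The part of this tissue in the CPM of the members was not tested.

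**Figure D4:**
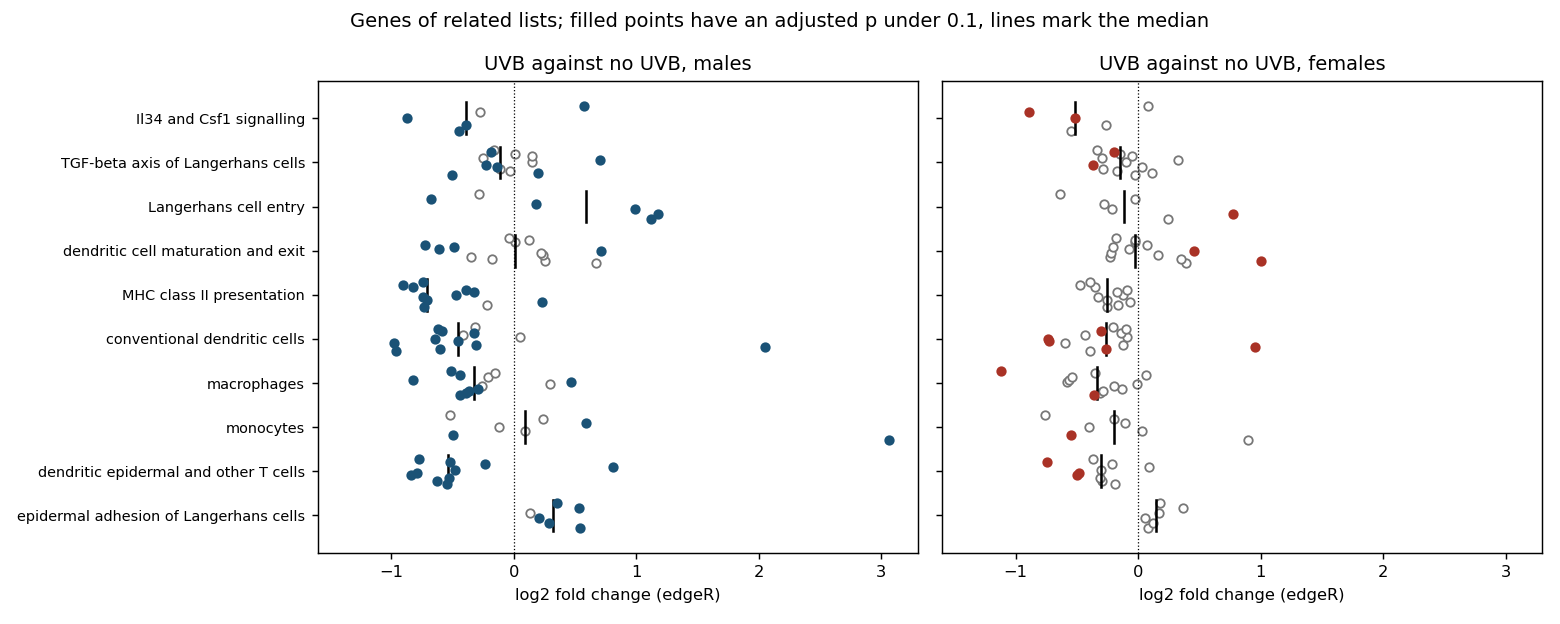
Log2 fold changes after UVB of the genes in each related list, in males (left) and in females (right), with 1 point per gene, filled at an adjusted p under 0.1, and a line at the list's median. The MHC class II list has its median at -0.71 in males and -0.26 in females.

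Genes that bring Langerhans cells or their precursors into the epidermis and those of dendritic cell maturation and exit did not all move one way. Of 6 entry genes 4 rose and 1 fell in males, with *Ccl20*, a chemokine made by keratinocytes, at 1.18 (adjusted p of 0.0112) and *Ccl2*, which draws monocytes, at 1.12 (adjusted p of 0.000229), while *Ccr6*, the receptor of *Ccl20*, was at -0.67 (adjusted p of 0.0389). In females *Ccl20* rose, at 0.77 (adjusted p of 0.0828), and the other 5 did not pass. Of 13 maturation and exit genes 1 rose and 3 fell in males and 2 rose in females. *Cd80*, a co-stimulatory ligand, rose in both sexes, at 0.72 (adjusted p of 0.00509) and 0.46 (adjusted p of 0.0588), whereas *Cd86*, a ligand of the same receptors, fell in males, at -0.49 (adjusted p of 0.00227), and was at -0.21 in females (adjusted p of 0.343). The other 2 that fell in males were *Cxcr4*, a chemokine receptor, at -0.72 (adjusted p of 0.0612) and *Cd83*, a maturation marker, at -0.61 (adjusted p of 0.00263), and the other gene that rose in females was *Ccl19*, a ligand of Ccr7, at 1.0 (adjusted p of 0.0186). All these p-values are from edgeR.

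TGF-beta, which Langerhans cells need to stay in the epidermis, is activated by integrins of keratinocytes. Of 13 genes of this axis 2 rose and 4 fell in males, and 2 fell in females, with medians of -0.11 and -0.14. Among all tested genes 29% rose and 30.5% fell in males, and 12.8% rose and 10.6% fell in females. *Itgb8*, a subunit of an activating integrin, rose in males from 27.1 ± 2.79 to 43.4 ± 2.10 CPM (0.70, adjusted p of 3.11e-05 by edgeR), and *Itgav*, its partner subunit, fell in both sexes, at -0.22 in males (adjusted p of 0.0110) and -0.37 in females (adjusted p of 0.00412). *Acvrl1*, a receptor of the same family, fell in males from 57.4 ± 5.75 to 39.8 ± 4.59 CPM (-0.51, adjusted p of 0.000772) and was at -0.03 in females (adjusted p of 0.880). It alone of the 13 passed in the interaction, at -0.49 (adjusted p of 0.0604), and it was higher in males than in females without UVB, at 0.48 (adjusted p of 0.00612). *Tgfbr1*, a receptor chain, fell in both sexes, at -0.19 (adjusted p of 0.0171) and -0.20 (adjusted p of 0.0605).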

How the data were processed

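RNA from whole dorsal skin of 16 mice was sequenced by the authors with a directional poly(A) library kit, and reads were aligned to GRCm39 and counted per gene with STAR. Raw counts of reads, in whole numbers, were deposited for each mouse. The annotation release behind them is not given in the sources used here, and GENCODE M39 was used for names and positions. Of 55359 genes, 54749 were named by it.

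Counts of the strand made by the kit were tested with edgeR 4.0.16 under R 4.3.3 (filterByExpr, TMM scaling, robust quasi-likelihood test, Benjamini-Hochberg adjustment over all genes tested), and a gene was called at an adjusted p under 0.1. Males and females were fitted apart for the UVB response (8 mice each), and together (16 mice) for the interaction and for sex. DESeq2 1.42.0 was an alternative. No 2 libraries of a group agreed within sampling noise. Labels give a replicate number to each mouse but no litter or day. With 4 mice per group, a p-value sets a group difference against the variation between these mice, which is estimated with the help of all genes tested.

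The members and the lists of related genes were chosen with earlier results of these data known, the lists by hand from general knowledge. For each list and comparison, the genes named were drawn from the up to 4 with the largest absolute log2 fold change among those called with a mean of at least 1 CPM, and not all of these were named. *Thy1* was named outside this rule, after its values were seen, as the largest part of a sum. Every gene of the interleukin-34 and MHC class II lists was open to naming. For each member the 5 genes with the highest Pearson r of log2 CPM (prior count of 2) among 15142 genes were named. A gene that could have been named is not reported here. The procedure was tested on simulated data.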

Additional observations from a re-analysis of the deposited data

Results flagged for a closer look

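A single value stood apart from the rest of its group. *H2-M2* in 1 UVB female was at 9.70 CPM, whereas the other 3 UVB females were at 15.1 to 15.8 CPM, and its gap to the nearest of them took up more of the group's range than Dixon's 95% critical value for 4 samples allows. This was 1 of 20 groups of mice and genes examined, and chance gives about 1 in 20. The same mouse also had the lowest *Cd207* (19.4 CPM), *Epcam* (106 CPM) and *Il34* (23.5 CPM) of the UVB females.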

How the results depend on the processing

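In males all 5 members kept their direction and their call under every alternative, including each fit without 1 mouse. In females *Ly75* and *Il34* did so, and *H2-M2* passed with all 16 mice in a single fit (-0.54, adjusted p of 0.0717) and by DESeq2 (-0.53, adjusted p of 0.0948). The interaction of *Il34* passed with upper quartile scaling (-0.39, adjusted p of 0.0877), with at least 10 counts in every mouse (-0.37, adjusted p of 0.0933) and by DESeq2 (-0.34, adjusted p of 0.0898), which made 1 member of 5 called under each. Genes called higher in the interaction numbered 478, against 229 with every gene of at least 1 count and 1072 by DESeq2, and genes higher in males after UVB 2222, against 1434 with every gene of at least 1 count. The cause was not tested.

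With 1 mouse left out, *H2-M2* in females ranged from -0.66 to -0.30, passing without no UVB female 4 (adjusted p of 0.0814), and *Epcam* from -0.052 to 0.32, the lowest without no UVB female 4, and 2 to 3 members were called in females. In the interaction *Il34* ranged from -0.46 to -0.28, passing without UVB female 2 (adjusted p of 0.0441) or UVB male 4 (0.0658), *Epcam* from 0.15 to 0.53, passing without no UVB female 4 (0.0971), and *Ly75* from -0.24 to 0.014, with 0 to 1 members called. *Ly75* changed sign there without no UVB female 3 (0.0044), no UVB female 4 (0.014), UVB male 2 (0.00045) or no UVB male 4 (0.010). The interaction had 163 to 835 genes higher and 298 to 1020 lower, the fewest of both without UVB male 1. Between males and females without UVB, *Cd207* ranged from -0.58 to -0.26, *Epcam* from -0.46 to -0.080, *H2-M2* from -0.63 to -0.25 and *Ly75* from -0.72 to -0.46, with 0 to 4 members, 762 to 1388 genes higher and 430 to 943 lower, the fewest of both without no UVB male 2. After UVB, *Epcam* ranged from -0.0062 to 0.16, the lowest without UVB female 2, and 1322 to 2341 genes were higher and 1469 to 2350 lower, the fewest of both without UVB female 1.

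The r of the deviations of same-numbered mice from their group means was -0.198 to 0.312 and was above 0.1 for some pairs only, so the mice were not taken as paired. With it as a block no call on a member changed, 5 members being called in males, 2 in females, 0 in the interaction, 1 between the sexes without UVB and 4 after UVB, and *Il34* was at -0.88 in males (adjusted p of 8.12e-05) and -0.52 in females (adjusted p of 0.0281). *Ly75* had the fewest counts of the members, 46 to 258 per mouse.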
